A study of Mus musculus with 18 samples.

Results

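The genes described here are those of the 4 transcription factors classically used to reprogram mouse fibroblasts, Pou5f1 (which encodes Oct4), Sox2, Klf4 and Myc, together with Mycn, the paralogue of Myc. All non-control array probes carrying 1 of these 5 gene names, of 27962 names on the array, were taken, each apart, which gave 8 of 41174 probes: 1 each for Pou5f1, Sox2 and Klf4, 3 for Myc and 2 for Mycn. The data are 18 Agilent arrays with 2 dyes each, or 36 channels of total RNA. The series set 3 clones of induced pluripotent stem cells (iPSC) labelled Dnmt3ab deficient, named 8, A6 and B2, against control iPSC. Dnmt3a and Dnmt3b are the de novo DNA methyltransferases. The same 3 clones were also read in a second RNA whose label adds some signs of differentiation, called differentiating clones here (12 channels). The 6 channels of the deficient clones labelled without that remark are called deficient iPSC. These shared arrays with V6.5 ESC, a mouse embryonic stem cell line (3 channels), and with mouse embryonic fibroblasts, MEF (3 channels). The differentiating clones shared arrays with 4 control iPSC lines, numbered 3 to 6 (12 channels). Deficient iPSC and control iPSC never shared an array.

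Each clone or line is 1 replicate and its arrays are technical, so n is 3 differentiating, 3 deficient and 4 control lines. V6.5 ESC and MEF are 1 RNA each, always in 1 dye (Cy5 for V6.5 ESC, Cy3 for MEF), so their own biological spread was not measured. Per the labels' protocols, iPSC were grown on irradiated fibroblast feeders and passaged on gelatin without new feeders before RNA was taken. The labels used here give neither the genotype of the control lines nor the factors or vectors that made any line.

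Oct4 and Sox2 bind DNA together at composite sites and, with Nanog, keep pluripotency genes on. Klf4 is a zinc finger factor of the same network and is also active in several differentiated cell types. c-Myc and N-Myc pair with Max to bind E-boxes of genes for ribosome production and growth, and N-Myc is abundant in embryonic stem cells, where it can stand in for c-Myc. In reprogrammed cells a probe for 1 of the 4 factor genes can read the endogenous gene, a reprogramming transgene, or both, depending on where it lies in the transcript.

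The 250 bases before the RefSeq start of transcription are shown for the genes with an entry, since these are the promoters through which the endogenous genes, but not a transgene with another promoter, are read, and since CG is the sequence at which de novo methyltransferases act. Sequences are from RefSeq on build GRCm38, written in the direction of the gene, with CG in capitals. They come from chr17:35505782-35506031 (plus strand) for Pou5f1, chr3:34649745-34649994 (plus strand) for Sox2, chr4:55532476-55532725 (minus strand) for Klf4 and chr12:12941837-12942086 (minus strand) for Mycn. Myc is named only.
Pou5f1: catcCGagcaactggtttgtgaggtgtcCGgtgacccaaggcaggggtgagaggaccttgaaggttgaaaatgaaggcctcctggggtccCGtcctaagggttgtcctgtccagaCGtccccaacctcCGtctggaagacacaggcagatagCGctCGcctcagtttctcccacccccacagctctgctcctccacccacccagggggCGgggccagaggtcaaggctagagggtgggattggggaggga
Sox2: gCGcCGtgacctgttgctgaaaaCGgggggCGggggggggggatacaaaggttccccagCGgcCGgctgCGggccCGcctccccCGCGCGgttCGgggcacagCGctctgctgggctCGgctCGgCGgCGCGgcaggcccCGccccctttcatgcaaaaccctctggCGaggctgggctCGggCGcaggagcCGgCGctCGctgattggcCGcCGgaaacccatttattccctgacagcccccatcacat
Klf4: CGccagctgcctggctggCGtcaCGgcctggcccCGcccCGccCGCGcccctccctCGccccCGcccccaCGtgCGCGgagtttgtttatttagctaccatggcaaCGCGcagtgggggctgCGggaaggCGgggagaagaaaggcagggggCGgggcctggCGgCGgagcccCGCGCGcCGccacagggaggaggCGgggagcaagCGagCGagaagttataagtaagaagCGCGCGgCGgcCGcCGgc
Mycn: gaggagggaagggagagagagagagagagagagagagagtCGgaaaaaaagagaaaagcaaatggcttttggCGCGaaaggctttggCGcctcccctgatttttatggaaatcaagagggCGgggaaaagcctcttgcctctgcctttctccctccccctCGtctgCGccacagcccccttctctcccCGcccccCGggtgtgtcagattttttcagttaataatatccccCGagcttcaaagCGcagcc

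The promoters differ in CG content. Klf4 had 32 CG and Sox2 27, and 4.58% and 8.56% of 32851 RefSeq promoters of this length had at least as many. Mycn had 11 CG and Pou5f1 8, and 35.6% and 43% of the promoters had at least as many. Searched on both strands, the E-box CACGTG was found once, in the Klf4 promoter, 182 bases before the start, and 6.02% of all promoters held it. The Klf motif CACNCCC was found once each in the Pou5f1 and Mycn promoters (26.1% of promoters held it), and the octamer ATTTGCAT in none of the 4 (1.6% of promoters). CACGTG holds a CG within it, as CACNCCC does where N is G. A match describes letters, not a bound site.

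The 8 probes are 60 or 61 bases long, and the files place them on build mm7. The Pou5f1 probe A_51_P202340 lies on chromosome 17 at 33612047 to 33612107, the Sox2 probe A_52_P307739 on chromosome 3 at 34459231 to 34459290, and the Klf4 probe A_51_P213544 on chromosome 4 at 55541780 to 55541839. The 3 Myc probes lie on chromosome 15. A_51_P102096 (62064256 to 62064316, printed as 10 spots on each array) is the one nearest the 3′ end of the gene, A_52_P108346 (62064157 to 62064216) starts 100 bases upstream of it, and A_52_P278549 (62063665 to 62063724) 592 bases upstream. The 2 Mycn probes lie on chromosome 12, where A_52_P536494 (12999078 to 12999137) is nearer the 3′ end and A_51_P497332 (13000197 to 13000256) lies 1119 bases upstream. Whether a probe falls in the coding part or in an untranslated part was not analysed here. It is therefore not known which of the 6 probes of the 4 factor genes could read a transgene as well as the endogenous gene. The array levels do not separate transgene from endogenous gene. All 8 probes were well above background in every channel, MEF included.

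1 array, called the odd array below, gave log ratios unlike those predicted for its labels. On this array, which paired differentiating clone 8 with control line 5, the log ratio between the channels correlated at 0.07 with the ratio predicted from the other arrays, with a slope of 0.038, while on the other 17 arrays, with that array left out, the correlation was 0.902 to 0.994 and the slope 0.888 to 0.985. The SD of its log ratio was 0.225, against 0.289 to 1.08 on the other arrays, and the Myc probe A_51_P102096 read 11.01 for differentiating clone 8 and 10.70 for control line 5. The odd array was also dim. Its median net signal, 88.62 in Cy3 and 133.1 in Cy5, was the lowest of all arrays in either dye. Its share well above background, 75.58% in Cy3 and 81.19% in Cy5, was the lowest of its scan day. Why this array differed was not tested. Its values enter the line values of differentiating clone 8 and of control line 5, and the counts of called probes below are given with and without it. The arrays were scanned on 2 days, the first with deficient iPSC, V6.5 ESC and MEF (6 arrays), the second with differentiating clones and control iPSC (12 arrays). For deficient against control iPSC, and for differentiating clones against deficient iPSC, the group and the day of scanning therefore cannot be told apart. All 3 Dnmt3a probes were lower in deficient than in control iPSC, with log2 differences of -2.48, -1.21 and -1.58 and adjusted p = 0.00227, 0.000914 and 0.00208 (limma, Benjamini-Hochberg). The Dnmt3b probe differed by -0.38 (adjusted p = 0.508). Where these probes lie relative to any deleted part is not known here.

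Levels are given as log2 signal per line, 1 value for each line and state. The offset of 50 intensity units added before the logarithm makes differences of dim probes too small, which touches Sox2 and Mycn in MEF. In RNA from whole cultures, fewer cells of a type and less RNA per cell cannot be told apart.

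**Figure D1:**
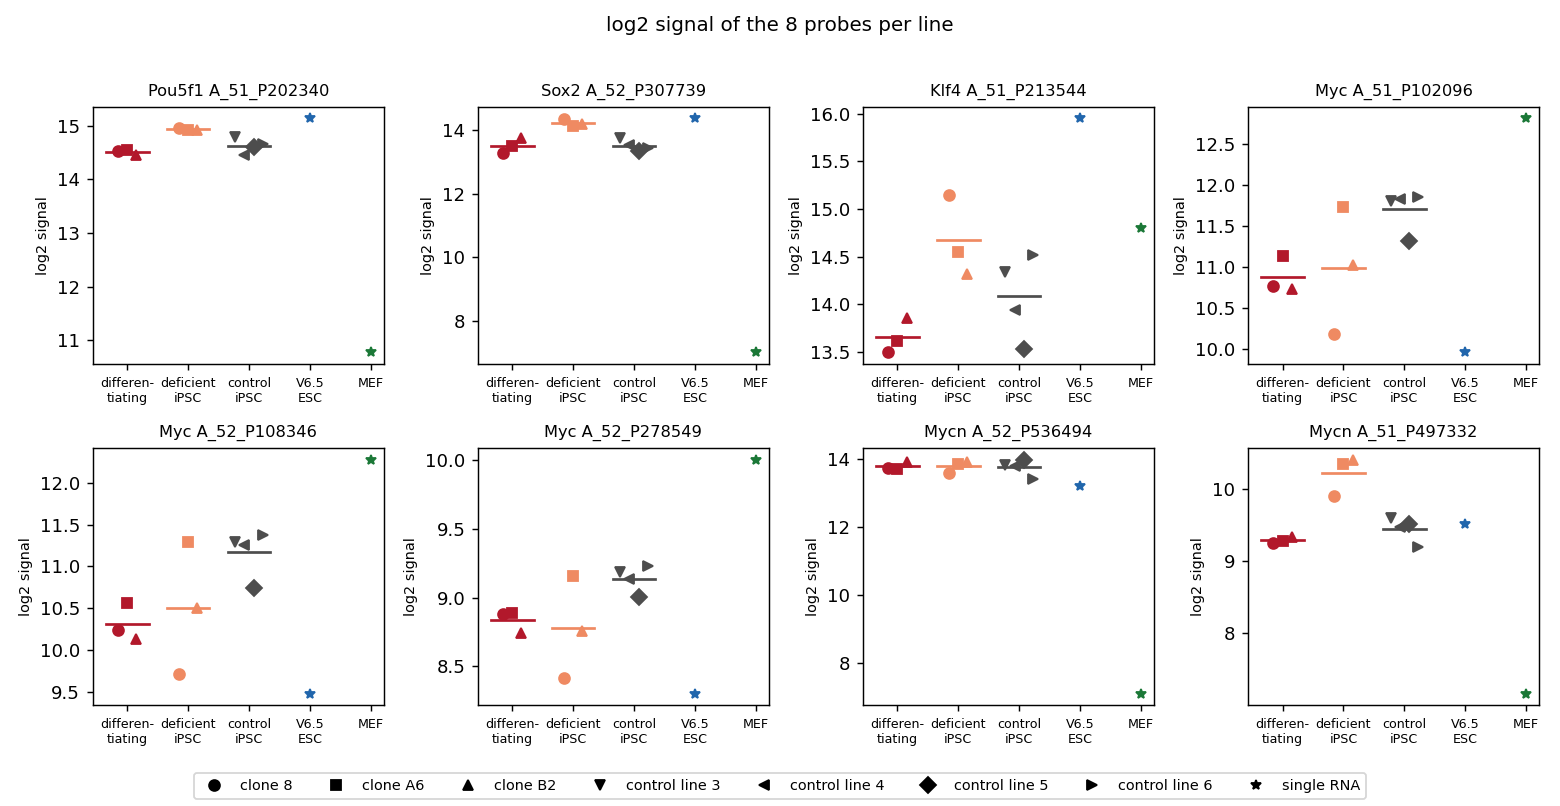
The log2 signal (y axis) of each of the 8 probes in each line of the 5 kinds of RNA (x axis), with 1 symbol per line and a bar at the mean of the lines of a group. Pou5f1, Sox2 and both Mycn probes are lowest in MEF, where the 3 Myc probes are highest, and Klf4 is highest in V6.5 ESC.

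Pou5f1, which encodes the POU factor Oct4, was at 14.52, 14.55 and 14.45 in differentiating clones 8, A6 and B2, at 14.96, 14.92 and 14.93 in the deficient iPSC of the same clones, and at 14.79, 14.45, 14.60 and 14.67 in control lines 3 to 6. The deficient lines were close together and above all control and differentiating lines. V6.5 ESC was higher, at 15.14, and MEF lowest, at 10.78. In order, V6.5 ESC and deficient iPSC did not overlap with the next group, while control and differentiating lines overlapped.

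Sox2, the HMG-box partner of Oct4, was at 13.28, 13.49 and 13.75 in differentiating clones 8, A6 and B2, at 14.33, 14.12 and 14.17 in deficient iPSC, and at 13.74, 13.51, 13.34 and 13.43 in control lines 3 to 6. The deficient lines again lay above all differentiating and control lines, which overlapped with each other. V6.5 ESC, at 14.37, was next to the deficient clone 8, and MEF was at 7.01, where the probe was dim.

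Klf4 spread more within groups. It was at 13.49, 13.62 and 13.86 in differentiating clones 8, A6 and B2, at 15.15, 14.55 and 14.31 in deficient iPSC, and at 14.34, 13.93, 13.53 and 14.52 in control lines 3 to 6. Clone 8 was both the highest deficient line and the lowest differentiating one. V6.5 ESC was above every iPSC line, at 15.95, and MEF, at 14.80, lay within the range of deficient iPSC. Klf4 was thus the gene of the 5 whose fibroblast level was among its iPSC levels.

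Myc, read by A_51_P102096, was at 10.78, 11.14 and 10.73 in differentiating clones 8, A6 and B2, at 10.19, 11.74 and 11.03 in deficient iPSC, and at 11.81, 11.84, 11.33 and 11.86 in control lines 3 to 6. V6.5 ESC was lowest, at 9.96, and MEF highest, at 12.82. The deficient clones were spread widely, from clone 8 near V6.5 ESC to clone A6 among the control lines. The differentiating clones lay below all control lines, and between the lowest and the highest deficient line. Without the odd array, control line 5 was at 11.73 and the control lines spanned 11.70 to 11.82.

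The other 2 Myc probes are upstream of the first. A_52_P108346 was at 10.24, 10.56 and 10.13 in differentiating clones, at 9.72, 11.30 and 10.51 in deficient iPSC, at 11.30, 11.26, 10.74 and 11.38 in control lines, at 9.48 in V6.5 ESC and at 12.28 in MEF. A_52_P278549 was at 8.88, 8.89 and 8.74 in differentiating clones, at 8.41, 9.16 and 8.76 in deficient iPSC, at 9.18, 9.13, 9.003 and 9.23 in control lines, at 8.30 in V6.5 ESC and at 10.004 in MEF. By all 3 probes deficient clone 8 was the iPSC line nearest V6.5 ESC and deficient clone A6 was the highest of the clones in either state.

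The 2 Mycn probes differed in pattern. A_52_P536494 was at 13.73, 13.69 and 13.91 in differentiating clones 8, A6 and B2, at 13.57, 13.85 and 13.92 in deficient iPSC, at 13.82, 13.78, 13.97 and 13.41 in control lines 3 to 6, at 13.19 in V6.5 ESC and at 7.11 in MEF. By this probe all 10 iPSC values lay above V6.5 ESC and the 3 iPSC groups overlapped. A_51_P497332 was at 9.25, 9.29 and 9.34 in differentiating clones, at 9.91, 10.35 and 10.41 in deficient iPSC, at 9.60, 9.47, 9.52 and 9.20 in control lines, at 9.52 in V6.5 ESC and at 7.16 in MEF. By this probe the deficient lines lay above all others, and V6.5 ESC lay among the control lines.

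Deficient against control iPSC is the comparison the series names. Pou5f1, Sox2 and the upstream Mycn probe were higher in the 3 deficient than in the 4 control lines, and Klf4 and the 3 Myc probes did not pass the test. Of the 8 probes, 3 were called higher and 0 lower (limma, adjusted p under 0.05, Benjamini-Hochberg over 36962 probes). Of all probes tested, 47.9% were called, 18.9% higher and 29.0% lower, so a call is common here and 3 of 8 is near the background. Over all probes 39.4% of the calls were higher, and 61.9% without normalization between arrays, when the median difference moved to 0.10 from -0.04. Pou5f1 averaged 14.93 ± 0.02 in deficient and 14.63 ± 0.14 in control iPSC (SD, n = 3 and 4), a difference of 0.31 ± 0.08 (SE) or 1.24-fold (limma adjusted p = 0.017). Sox2 averaged 14.21 ± 0.11 and 13.50 ± 0.17 (SD) in the same groups, 1.63-fold higher (0.70 ± 0.10, limma adjusted p = 0.00174). Both differences exceeded the SD within either group, and the groups did not overlap.

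Klf4 averaged 14.67 ± 0.43 in deficient and 14.08 ± 0.44 in control iPSC, a difference of 0.59 ± 0.29 (SE) that the limma test did not pass (adjusted p = 0.133), with the groups overlapping. Without normalization between arrays, which moved the median of all probes upwards, Klf4 passed at 0.84 ± 0.29 (limma adjusted p = 0.045). Myc by A_51_P102096 averaged 10.98 ± 0.78 in deficient and 11.71 ± 0.26 in control iPSC (-0.72 ± 0.35, limma adjusted p = 0.129), and the other Myc probes differed by -0.66 and -0.36 (limma adjusted p = 0.169 and 0.114). Whether Myc was called depended on clone A6 and on the fit. Without clone A6 the 3 Myc differences were -1.10, -1.06 and -0.55 and all passed (limma adjusted p = 0.0252, 0.0293 and 0.0148), and with slide as a random block in a fit that counts channels, not lines, all 3 passed at -0.73, -0.66 and -0.34 (limma adjusted p = 0.028, 0.0263 and 0.0287). With normexp fitted on all spots, A_52_P278549 passed at -0.36 ± 0.11 (limma adjusted p = 0.0392).

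Mycn gave a different answer by each probe. A_51_P497332 averaged 10.22 ± 0.27 in deficient and 9.45 ± 0.17 in control iPSC, 1.71-fold higher (0.78 ± 0.15, limma adjusted p = 0.00504), while A_52_P536494 averaged 13.78 ± 0.18 and 13.74 ± 0.24 and differed by 0.04 ± 0.15 (limma adjusted p = 0.856). Leaving out the odd array, the same 3 probes passed, with differences of 0.30 for Pou5f1, 0.72 for Sox2 and 0.68 for Mycn A_51_P497332, and 48.6% of all probes were called. The line values use the correlation between both channels of a spot (0.877), called the intra-spot correlation. Fitted without it, 3 of 8 probes and 30.8% of all probes were called.

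Markers of other cells moved with this comparison. Of 18 fibroblast and feeder markers, 13 were lower and 2 higher in deficient than in control iPSC (14 and 2 without the odd array), with a median difference of -1.004, against -0.07 over 25204 genes, of which 48.1% were called. Their mean log2 signal was 11.16 to 11.22 in deficient lines, 11.66 to 12.37 in control lines and 15.40 in MEF. The scanner marked all 18 as above background in every channel, which does not show that each was expressed. Lum and Twist2, chosen here after their values were seen, were dim in deficient lines, at 7.40 to 7.44 and 7.36 to 7.48, against 8.37 to 9.12 and 8.60 to 9.28 in control lines. Other markers of the list did otherwise. The 2 called higher in deficient iPSC were Twist1 (0.79) and Fn1 (0.51). Acta2 and Vim, also chosen by their values, were bright in deficient lines, at 14.22 to 14.53 and 14.51 to 14.69. Of 12 pluripotent markers 6 were higher and 0 lower (7 and 0 without the odd array), Pou5f1 and Sox2 among the 12. The part of feeder RNA in the differences of the 5 genes was not tested.

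**Figure D2:**
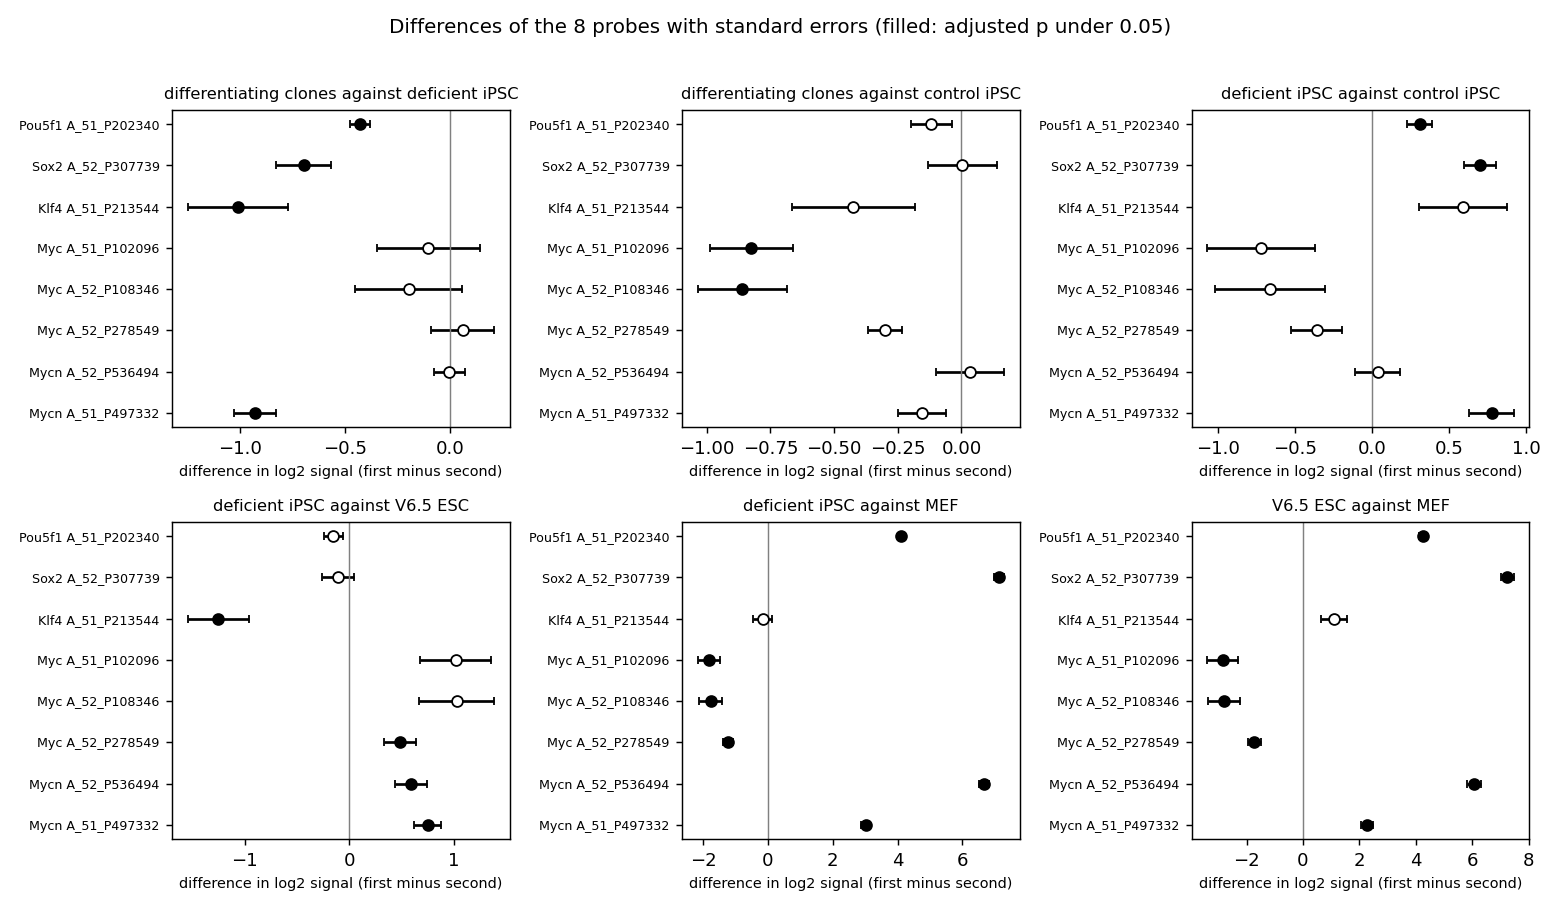
Difference in log2 signal (x axis) of the 8 probes (rows) in 6 comparisons, first group minus second, with standard errors as bars. Filled points passed the limma test at an adjusted p under 0.05. Deficient iPSC stand above control iPSC for Pou5f1, Sox2 and the upstream Mycn probe, and against MEF the Pou5f1, Sox2 and Mycn probes are higher while the Myc probes are lower.

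Differentiating clones against deficient iPSC pairs each clone with itself. Pou5f1, Sox2, Klf4 and the upstream Mycn probe were lower in the differentiating RNA of all 3 clones, and Myc had no common direction. Of the 8 probes, 4 were called lower and 0 higher, where 54.0% of all probes were called, 31.3% higher and 22.7% lower. Over all probes 57.9% of the calls were higher, and 36.3% without normalization between arrays. Klf4 had the largest difference of the 8. The difference was -1.65 in clone 8, -0.93 in clone A6 and -0.46 in clone B2, on average 2.02-fold lower (-1.01 ± 0.24, limma adjusted p = 0.0248). The mean did not pass without the intra-spot correlation (limma adjusted p = 0.056), when 33.8% of all probes were called. It did not pass without clone A6 either (limma adjusted p = 0.105), when 17.6% of all probes were called.

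The upstream Mycn probe A_51_P497332 differed by -0.65, -1.07 and -1.07 in clones 8, A6 and B2, or 1.91-fold lower (-0.93 ± 0.10, limma adjusted p = 0.00413). Sox2 differed by -1.04, -0.63 and -0.42, or 1.62-fold lower (-0.70 ± 0.13, limma adjusted p = 0.0136). It missed the threshold without clone A6 (limma adjusted p = 0.0737), when 17.6% of all probes were called. Pou5f1 differed by -0.43, -0.37 and -0.47, or 1.35-fold lower (-0.43 ± 0.05, limma adjusted p = 0.00416). Of the 4 called probes, Pou5f1 had the smallest standard error.

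Myc went opposite ways in the clones. By A_51_P102096, differentiating minus deficient was 0.59 in clone 8, -0.61 in clone A6 and -0.30 in clone B2, a mean of -0.10 ± 0.25 (limma adjusted p = 0.737). The other 2 probes gave means of -0.20 and 0.06 (limma adjusted p = 0.541 and 0.756), also with clone 8 above 0 and clone A6 below. The downstream Mycn probe A_52_P536494 stood at 0.16, -0.16 and 0.00, with a mean of 0.00 ± 0.08 (limma adjusted p = 0.973). Without normalization between arrays it was called lower at -0.35 ± 0.07 (limma adjusted p = 0.0144), and 5 of the 8 probes and 59.2% of all probes were then called. Without clone 8, A_51_P102096 and A_52_P108346 stood at -0.45 and -0.56 and passed (limma adjusted p = 0.0119 and 0.00899), when 59.3% of all probes were called.

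When the odd array was left out, the same 4 probes were called, with Klf4 at -0.93 (limma adjusted p = 0.0473), and 53.7% of all probes. Markers of endoderm moved in the same comparison: 9 of 10 were higher and 0 lower in the differentiating clones, with or without the odd array, where 54.5% of all genes were called, with a median difference of 1.84. Their mean log2 signal was 9.68 to 10.36 in differentiating clones, 7.93 to 9.47 in deficient iPSC and 7.67 to 8.72 in control lines. Of 18 fibroblast and feeder markers 7 were higher and 4 lower, and without the odd array 8 were higher and 7 lower. The part of these cells in the differences of the 5 genes was not tested.

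**Figure D3:**
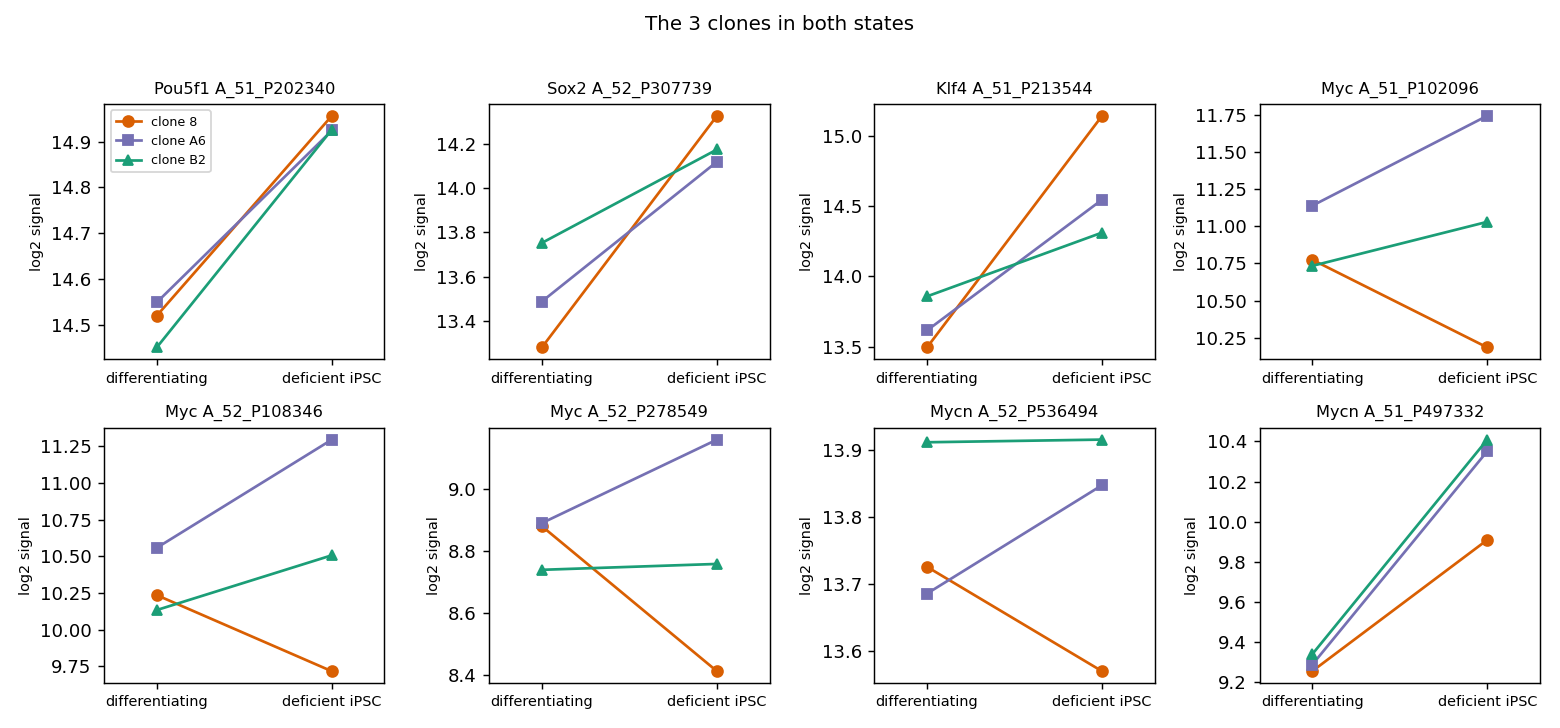
The log2 signal (y axis) of the 8 probes in the 3 clones, with the differentiating RNA on the left and the deficient iPSC RNA of the same clone on the right, joined by a line. Pou5f1, Sox2, Klf4 and Mycn A_51_P497332 are lower in the differentiating RNA of all 3 clones, whereas for Myc clone 8 runs the opposite way from clone A6.

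Differentiating clones against control iPSC were read on the same arrays and the same scan day, but unevenly in dye. Differentiating clones had 9 channels in Cy3 and 3 in Cy5. Control lines had 3 in Cy3 and 9 in Cy5, and line 3 was read in Cy5 alone. Myc was the gene of the 5 with a called difference here, and it was lower in the differentiating clones. Of the 8 probes, 2 were called lower and 0 higher, where 4.57% of all probes were called, 2.10% higher and 2.47% lower. Both are Myc probes: A_51_P102096 averaged 10.88 ± 0.22 in differentiating clones and 11.71 ± 0.26 in control lines, 1.77-fold lower (-0.83 ± 0.16, limma adjusted p = 0.0443). A_52_P108346 averaged 10.31 ± 0.22 and 11.17 ± 0.29, 1.82-fold lower (-0.86 ± 0.18, limma adjusted p = 0.0483). The third, A_52_P278549, differed by -0.30 ± 0.07 and missed the threshold (limma adjusted p = 0.0573), although its groups did not overlap.

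These calls lie near the threshold. Leaving out the odd array, all 3 Myc probes passed at -0.88, -0.92 and -0.32 (limma adjusted p = 0.0174, 0.0162 and 0.0163), and 9.29% of all probes were called. With the replicate number as a block, which pairs each clone with the 4 control channels on its own arrays, the 3 Myc probes (limma adjusted p = 0.0188, 0.0183 and 0.0264), Klf4 (-0.40, limma adjusted p = 0.0365) and Mycn A_51_P497332 (-0.14, limma adjusted p = 0.048) were called lower. Each pair takes in the same 4 control lines, so the p-values with the block leave out the spread between these lines. With the block 18.8% of all probes were called. With the block and without the odd array, 3 probes were called, the 3 Myc probes, and 18.2% of all probes. Without the dye term 0 of 8 probes were called (3 at an unadjusted p under 0.05), with the Myc probes at -0.72 and -0.76 and limma adjusted p = 0.0576 and 0.055. Without normalization between arrays A_52_P108346 missed the threshold (limma adjusted p = 0.0543). Without clone 8, A6 or B2, or control line 3 or 4, 0 of the 8 probes passed after adjustment and at least 3 at an unadjusted p under 0.05. Without clone A6 or B2, or control line 3 or 4, 0 of all 36964 probes passed either (5519 to 6319 at an unadjusted p under 0.05), so that loss was common to the whole array, while without clone 8 5.07% of all probes were called. Without control line 5, 3 of the 8 and 6.08% of all probes were called, and without control line 6, 4 of the 8 and 14.1%. In the fit without the intra-spot correlation A_52_P108346 alone passed, unless the odd array was left out too, when all 3 Myc probes passed.

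Klf4 (-0.43 ± 0.24, limma adjusted p = 0.382), Pou5f1 (-0.12 ± 0.08, limma adjusted p = 0.476) and Sox2 (0.00 ± 0.14, limma adjusted p = 0.995) did not pass, and neither did either Mycn probe (0.03 and -0.155). Of 18 fibroblast and feeder markers, 4 were lower in the differentiating clones and 0 higher (8 and 0 without the odd array), where 4.67% of all genes were called, with mean log2 signals of 11.13 to 11.63 in differentiating clones and 11.66 to 12.37 in control lines. Myc was the one of the 5 genes that stood highest in MEF. Of 10 endoderm markers 6 were higher and 0 lower, with or without the odd array. The part of either in the Myc difference was not tested.

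Deficient iPSC against V6.5 ESC shared arrays, with V6.5 ESC as 1 RNA. The fit also took in the arrays of differentiating clones and control iPSC, which hold neither RNA. Its standard errors and p-values therefore count technical arrays, those of other RNAs included, and do not rest on the 3 clones alone. Klf4 was lower in the deficient clones, both Mycn probes were higher, and Pou5f1 and Sox2 did not pass. Of the 8 probes, 3 were called higher and 1 lower, where 13.6% of all probes were called, 5.36% higher and 8.28% lower. With the 3 arrays of this pair alone and no dye term, 1 was called higher and 1 lower, where 22% of all probes were called. Klf4 was 2.39-fold lower in deficient iPSC (-1.26 ± 0.29, limma adjusted p = 0.00862), by line values -0.81, -1.41 and -1.64 in clones 8, A6 and B2. Mycn was 1.51-fold higher by A_52_P536494 (0.59 ± 0.15, limma adjusted p = 0.0168) and 1.68-fold higher by A_51_P497332 (0.75 ± 0.13, limma adjusted p = 0.00126), in all 3 clones by both. V6.5 ESC was always in Cy5, and the call of A_52_P536494 depended on the dye term: without it the difference was 0.40 ± 0.15 (limma adjusted p = 0.082), and on the 3 arrays alone, with no dye term, 0.40 ± 0.12 (limma adjusted p = 0.0785).

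Myc was above V6.5 ESC in every clone by all 3 probes, but unevenly, by 0.22 in clone 8, 1.78 in clone A6 and 1.07 in clone B2 for A_51_P102096. The mean differences were 1.02, 1.03 and 0.49 with limma adjusted p = 0.0583, 0.0706 and 0.0411, so A_52_P278549 alone passed. That probe passed neither with normexp fitted on all spots (0.15, limma adjusted p = 0.651) nor on the 3 arrays alone (0.45, limma adjusted p = 0.0923), while the other 2 passed without the dye term, at 1.23 and 1.21 (limma adjusted p = 0.00832 and 0.012). All 3 passed without the odd array (limma adjusted p = 0.0269, 0.0292 and 0.0215), and then 6 of 8 and 16.1% of all probes were called. Pou5f1 differed by -0.15 ± 0.09 and Sox2 by -0.11 ± 0.15 (limma adjusted p = 0.297 and 0.717). Calls depended on the clones, over all probes too. Without clone A6, 1 of the 8 and 5.92% of all probes were called, and without clone B2, 1 and 6.08%. Without clone 8, 6 of the 8 and 12.5% of all probes were called.

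Against MEF the differences were far larger. Sox2 was 141-fold and 152-fold higher in deficient iPSC and in V6.5 ESC (7.14 ± 0.15 and 7.25 ± 0.24), Pou5f1 17.3-fold and 19.2-fold (4.11 ± 0.09 and 4.27 ± 0.14), and Mycn by A_52_P536494 101-fold and 66.9-fold (6.66 ± 0.15 and 6.06 ± 0.24). The upstream Mycn probe was 8.09-fold and 4.82-fold higher. Of the 8 probes, 4 were called higher and 3 lower in either comparison, where 59.6% of all probes were called for deficient iPSC (28.5% higher, 31.1% lower) and 48.1% for V6.5 ESC (22.9% higher, 25.2% lower). The largest of these limma adjusted p-values was 0.000412 for deficient iPSC and 0.000606 for V6.5 ESC. V6.5 ESC and MEF are 1 RNA each and never shared an array, so the p-values between them rest on the spread of the clones and of technical arrays, not on replicates of either.

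Myc was the exception in direction. By its 3 probes it was 3.56-fold, 3.41-fold and 2.35-fold lower in deficient iPSC than in MEF, and 7.21-fold, 6.95-fold and 3.3-fold lower in V6.5 ESC than in MEF. Klf4 did not pass in either, at -0.16 ± 0.29 for deficient iPSC (limma adjusted p = 0.662) and 1.09 ± 0.46 for V6.5 ESC (limma adjusted p = 0.0605). The V6.5 ESC difference passed at 0.89 without the dye term (limma adjusted p = 0.0383) and at 1.19 with normexp fitted on all spots (limma adjusted p = 0.0482). Both comparisons share the MEF channels. Leaving out the odd array gave 4 higher and 3 lower in both.

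The probes of 1 gene were compared by the gap between their log2 signals in a line. The Mycn gap (A_52_P536494 minus A_51_P497332) was 4.47, 4.399 and 4.57 in differentiating clones 8, A6 and B2, 3.66, 3.50 and 3.51 in deficient iPSC, 4.22, 4.30, 4.45 and 4.21 in control lines 3 to 6, 3.68 in V6.5 ESC and -0.05 in MEF. The deficient clones and V6.5 ESC, all read on the first scan day, had the smaller gaps, and the differentiating clones and control lines, all read on the second, the larger ones. MEF, where both probes were dim, was read on the first day.

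Deficient and control lines did not overlap in the Mycn gap. The difference was -0.74, with an exact two-sided permutation p = 0.0286, the smallest that 3 against 4 lines can give, and 0.152 after Benjamini-Hochberg adjustment over 8 such tests. Without the odd array it was -0.60 (exact permutation p = 0.0286, adjusted p = 0.0572), with gaps of 3.50 to 3.66 in deficient and 4.09 to 4.21 in control lines. Over the other settings for line values it lay between -0.80 and -0.59. Here too the group and the day of scanning cannot be told apart.

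For Myc, A_51_P102096 minus A_52_P108346, the nearest pair, was even: 0.54 to 0.60 in differentiating clones, 0.45 to 0.52 in deficient iPSC, 0.48 to 0.58 in control lines, 0.49 in V6.5 ESC and 0.55 in MEF. The gap to the upstream probe A_52_P278549 was wider where Myc was high, at 2.82 in MEF and 1.66 in V6.5 ESC. It was 1.89 to 2.25 in differentiating clones and 2.32 to 2.70 in control lines, which did not overlap (difference -0.53, exact permutation p = 0.0571, adjusted p = 0.152). Without the odd array it was 1.79 to 2.36 in differentiating clones and 2.58 to 2.71 in control lines (difference -0.57, exact permutation p = 0.0286, adjusted p = 0.0572). In deficient iPSC it ran from 1.77 in clone 8, the line with the lowest Myc, to 2.58 in clone A6, the line with the highest.

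**Figure D4:**
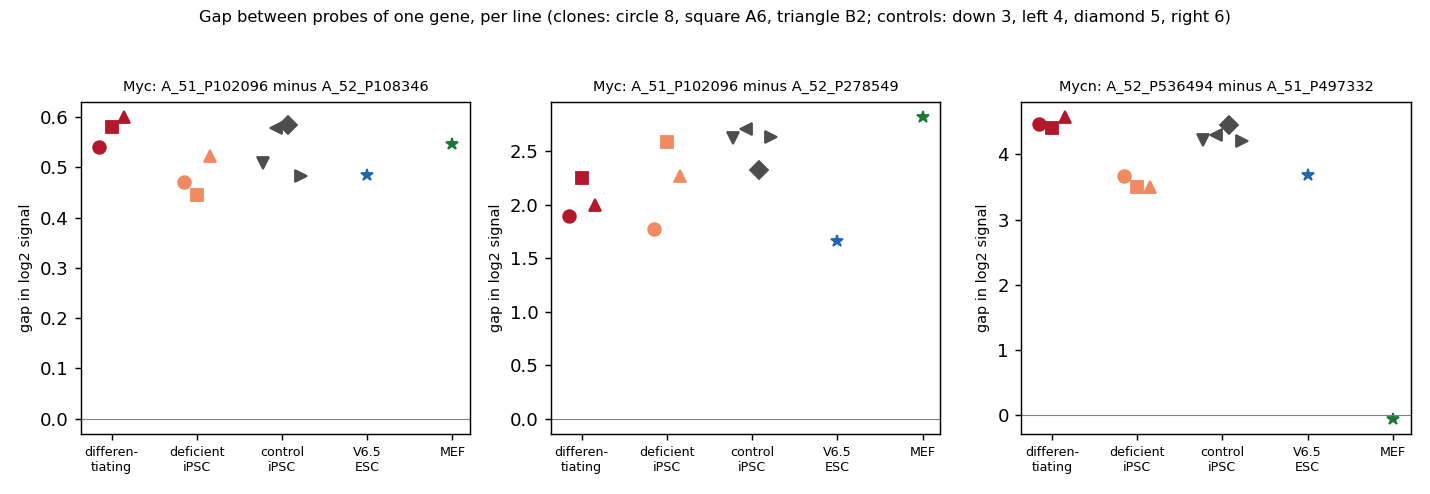
The gap in log2 signal (y axis) between 2 probes of Myc (left and middle panels) and of Mycn (right panel) in each line of the 5 kinds of RNA. The Mycn gaps of the 3 deficient lines lie below those of all differentiating and control lines, next to V6.5 ESC, and MEF lies near 0.

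Genes around the factors were read through 4 lists, with each gene represented by its brightest probe. The lists are not independent. Of the Oct4 and Sox2 targets, 7 are also among the pluripotent markers, and Nanog, Sall4 and Utf1 are also among the paralogues and substitutes. Oct4 and Sox2 targets (18 measured of 21 listed) were mostly lower in the differentiating RNA than in deficient iPSC. Between differentiating clones and deficient iPSC 15 were called lower and 0 higher, with a median difference of -0.64 against 0.08 over all genes and 54.5% of all genes called. Nanog, the homeodomain partner of the network (-1.58), the Nodal antagonist gene Lefty1 (-1.12), the Nodal co-receptor gene Tdgf1 (-0.94) and Tcl1, an Akt co-activator gene (-0.88), were lower. Without the odd array Tcl1 did not pass (limma adjusted p = 0.0686) and the count was again 15.

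In deficient against control iPSC 7 of the 18 were called higher and 0 lower, with a median of 0.33 against -0.07 over all genes and 48.1% of genes called. Nanog was higher by 1.04, Dppa4, a pluripotency-associated chromatin factor gene, by 0.89, Tdgf1 by 0.74 and Zfp57, a zinc finger gene of imprint maintenance, by 0.61. Leaving out the odd array, 9 were higher and 1 lower. Between differentiating clones and control iPSC 3 were lower and 0 higher, with or without the odd array, where 4.67% of all genes were called: Lefty1 (-1.14), Spp1, which encodes osteopontin (-0.68), and Eomes, a T-box gene (-0.52). In deficient iPSC against V6.5 ESC 2 were higher and 2 lower, with or without the odd array, where 14% of all genes were called, with Zfp42 (Rex1), a marker of naive pluripotent cells, at -2.59 and Lefty1 higher by 1.77.

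Paralogues and known substitutes of the factors (19 measured of 22) moved both ways. Between differentiating clones and deficient iPSC 6 were higher and 6 lower, with or without the odd array, where 54.5% of all genes were called: Gata6, an endoderm regulator, was higher by 2.16, while Nanog (-1.58), the T-box gene Tbx3 (-1.12) and Klf5 (-0.75), a paralogue of Klf4, were lower. Against control iPSC Gata6 was the single call, higher by 2.75, where 4.67% of all genes were called. In deficient against control iPSC 3 were higher and 4 lower (6 and 3 without the odd array), where 48.1% of all genes were called, with Pou2f1, the ubiquitous Oct1 gene, higher by 0.71. In deficient iPSC against V6.5 ESC 3 were higher and 2 lower, where 14% of all genes were called, with Tbx3 at -1.28, the POU gene Pou3f1 at 1.15, Lin28 at 0.66 and Sox15 at -0.39.

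Myc targets (21 measured of 26), are mostly genes of ribosome production and growth. For differentiating clones against deficient iPSC 12 were lower and 0 higher (13 and 0 without the odd array), with a median of -0.28. The number called is near the 54.5% of all genes called in either direction, while 22.7% of all probes were called lower. Among the 12 were Ncl, which encodes nucleolin (-0.84), the repair endonuclease gene Apex1 (-0.83), the chaperonin gene Hspd1 (-0.71) and the helicase gene Ddx18 (-0.63). In deficient against control iPSC 9 were higher and 0 lower, with or without the odd array, with a median of 0.24. The number called is again near the 48.1% of all genes in either direction, while 18.9% of all probes were called higher. Among the 9 were Srm, for spermidine synthase (0.56), Ncl (0.47), Apex1 (0.46) and Hspd1 (0.45). In both comparisons the split of all calls by direction depended on normalization between arrays. Between differentiating clones and control iPSC, where 4.67% of all genes were called, 2 were lower, Apex1 (-0.37) and Ddx18 (-0.34), and without the odd array 3.

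In deficient iPSC against V6.5 ESC 6 Myc targets were higher and 1 lower (7 and 1 without the odd array), with 14% of all genes called: the cyclin gene Ccnd2 stood at 1.45, Odc1, for ornithine decarboxylase, at 0.75, the nucleolar gene Nol5a at 0.49 and Cad, of pyrimidine synthesis, at -0.46. Genes of the Myc network (18 measured of 20), which encode dimer partners, antagonists and other proteins tied to Myc, were mostly not called. In deficient against control iPSC 5 were higher and 1 lower (5 and 2 without the odd array), fewer than the 48.1% of all genes called, among them Max, the common partner (1.02), and the antagonist genes Mxd4 (0.89), Mxd1 (0.80) and Mxd3 (0.78). Between differentiating clones and deficient iPSC Max was lower (-0.95), and Mlxip (0.43) and the kinase gene Aurka (0.36) were higher, with 3 higher and 2 lower in all, where 54.5% of all genes were called, and 5 higher and 2 lower without the odd array. Against control iPSC Mxd4 (0.72) and Aurka (0.36) were higher in the differentiating clones and 0 were lower, where 4.67% of all genes were called. Without the odd array 4 were higher, where 9.29% of all probes were called. In deficient iPSC against V6.5 ESC Mycbp (0.35) was higher and Ruvbl2 (-0.52) lower, where 14% of all genes were called. Without the odd array Mycbp did not pass (limma adjusted p = 0.0514).

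**Figure D5:**
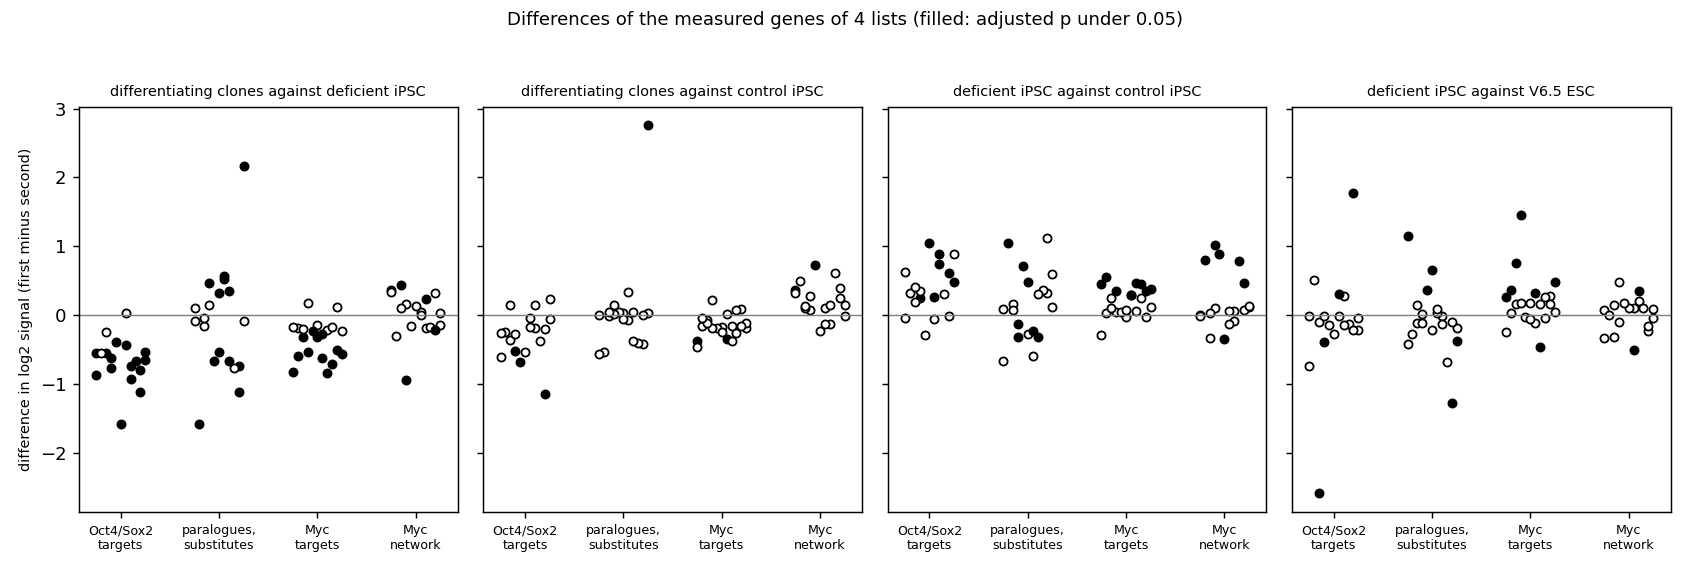
Difference in log2 signal (y axis, first group minus second) of each measured gene of 4 lists (x axis) in 4 comparisons. Filled points passed the limma test at an adjusted p under 0.05. The 15 called Oct4 and Sox2 targets and 12 called Myc targets of differentiating clones against deficient iPSC all lie below 0.

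The 5 genes were also set against each other over the 10 iPSC values, which include each clone in 2 states and share arrays and scan days, as a description. The Pearson correlation was 0.82 for Pou5f1 with Sox2, 0.80 for Pou5f1 with Klf4 and 0.79 for Sox2 with Klf4. Myc was near 0 or below with the others, from -0.34 with Sox2 to 0.00 with Mycn, each gene being represented by its brightest probe, and Klf4 with Mycn was at -0.44. For Mycn that probe is A_52_P536494. The other Mycn probe, A_51_P497332, whose pattern differed, was not used in these correlations or in those below, so the Mycn values hold for 1 probe. The genes most like each of them over all 12 values, among 15295 named genes, were Ddx4, Sall4 and Hsp90aa1 for Pou5f1 (0.992 to 0.994) and Dtl, Mcm3 and Exoc6 for Sox2 (0.993 to 0.994). Cbx7, Clspn and Erbb3 were the most alike for Mycn (0.993 to 0.996). The MEF value, the lowest for these 3 genes, is among the 12.

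For Klf4 the 3 were Oxa1l, Sfrp1 and Mesdc1 (0.931 to 0.949), and for Myc Lysmd2, Apol6 and Ch25h (0.930 to 0.944). Over the 10 iPSC values they were Csda, Mchr1 and Krt2-25 for Pou5f1 (0.943 to 0.956), Odz4, Psma3 and Arhgap4 for Sox2 (0.981 to 0.985), Pcgf2, Thrap5 and Nr5a2 for Klf4 (0.961 to 0.966), Apol6, Tspan18 and Bmp8b for Myc (0.946 to 0.967), and Arhgap29, Cbx7 and Paf1 for Mycn (0.892 to 0.931). Krt2-25 and Bmp8b were dim, at 6.68 and 6.79 in their lowest deficient line. Over these values Krt2-25 had a log2 range of 0.37, Psma3 of 0.25 and Bmp8b of 1.8. With all arrays in, Apol6 was among the 3 for Myc and Cbx7 among the 3 for Mycn over both sets of values. Oxa1l with Klf4 moved most when the odd array was left out, to 0.845. Apol6 then stayed among the 3 for Myc over both sets. Hsp90aa1, Exoc6, Oxa1l, Ch25h, Clspn and Erbb3 were then no longer among the 3 over all 12 values. Over the 10 iPSC values Mchr1, Arhgap4, Thrap5, Tspan18, Cbx7 and Paf1 no longer were, and the 3 for Mycn were Arhgap29, Napb and Wdr39.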

How the data were processed

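Scanner files of 18 arrays were deposited by the authors with intensity values per spot (mean signal and local background in each dye), made with Agilent Feature Extraction 10.1.1.1 per the file headers, and a value table of log2 ratios was deposited by the authors for the same arrays, whose centring is not stated. The submitters' processing notes name limma, with no version. Set against the scanner values, the value table's columns correlated at an absolute r of 0.982 to 0.999, 12 of 18 with the sign turned.

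Background was corrected with normexp (offset 50, parameters fitted without outlier spots), arrays were normalized by loess within and Aquantile between arrays, and spots of a probe were averaged. Probes were kept where a share of at least 0.5 of the channels of any 1 kind of RNA was well above background, which kept 36964 of 41174 probes. Median net signal per channel was 88.62 to 312.6, which limits precision for dim probes. Line values came from limma 3.58.1 (R 4.3.3) as a single-channel fit with line, state and dye (intra-spot correlation 0.877). Lines were compared with limma's moderated test across all kept probes, and comparisons with V6.5 ESC and MEF in a fit of the log ratios, with Benjamini-Hochberg adjustment and a threshold of 0.05. The fit of the log ratios counts arrays, not lines, and takes in arrays that hold neither V6.5 ESC nor MEF. The scripts were tested on simulated data.

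Control samples share replicate numbers with the clones on their arrays per the labels. Deviations of same-numbered samples correlated at 0.151, 0.099 and 0.128, and the labels place them on the same arrays, so the fit with the replicate number as a block is printed beside the result it changes. The 5 genes and the gene lists were chosen with earlier results of these data known. Named list genes are at most 4 called members with the largest differences per list and comparison, and the genes most like each of the 5 are the 3 with the highest Pearson correlation. Alternatives were no normalization between arrays, plain background subtraction with a floor, the scanner's processed signals, no or a stricter filter, no dye term, slide or replicate as a block, the deposited value table, and each line left out. The fits with normexp on all spots, without the intra-spot correlation, and without the odd array were added after seeing the data. Nothing says that arrays of a line came from separate cultures. Reprogramming vectors and probe positions within transcripts were not analysed here.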

Additional observations from a re-analysis of the deposited data

Results flagged for a closer look

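By the Myc probe A_51_P102096, control line 5 was at 11.326, far below the other 3 control lines, which lay at 11.81, 11.84 and 11.86. Its gap to the nearest line was large against the range of the 4 lines by Dixon's test, which chance passes in about 1 in 20 groups. Line 5 is the control line read on the odd array. Without that array it was at 11.73, within a control range of 11.70 to 11.82, and no longer stood apart.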

How the results depend on the processing

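Of the values of the 8 probes over the other settings, 643 kept direction and side of the threshold, 31 passed it newly, 27 no longer passed and 19 changed sign, none of the last being called. The cause was not tested. Against MEF, 7 probes were called in every setting for deficient iPSC, and 7 or 8 for V6.5 ESC. For deficient against control iPSC, where 3 probes were called, 6 were called with slide as a random block, and 3 to 6 when 1 line was left out (6 without clone A6). Of all probes, 47.9% were called in that comparison, 36.1% with the slide block and 37.9% without clone A6. For differentiating clones against control iPSC, where 2 were called, the count was 1 without normalization between arrays, 0 without the dye term (3 at an unadjusted p under 0.05 by limma), 1 without the intra-spot correlation, 3 without the odd array, 3 with slide as a fixed block, 4 in the deposited value table, and 0 to 4 when 1 line was left out. With the replicate block it was 5, and 3 with the block and without the odd array. The replicate block could be fitted for this comparison alone, and its p-values leave out the spread between the control lines. The fits with slide as a block count channels as replicates. The fit of the deposited value table and the fits against V6.5 ESC and MEF count arrays. The numbers called in all of these fits therefore do not rest on lines. For differentiating clones against deficient iPSC the count was 4, and 2 to 6 when 1 clone was left out (2 without A6, 6 without clone 8). Of all probes, 54.0% were called in that comparison, 17.6% without A6 and 59.3% without clone 8. For deficient iPSC against V6.5 ESC the count was 4, 6 without the odd array, 2 on the 3 arrays alone, and 1 to 6 when 1 clone was left out. Of all probes, 13.6% were called in that comparison, and 5.92% to 12.5% when 1 clone was left out.

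Over all probes, differentiating clones against control iPSC gave 1690 calls, against 3434 without the odd array and 6942 with the replicate block. The same comparison gave 12915 in the deposited value table, with arrays as replicates, and 5745 with slide as a block, with channels as replicates. It gave 584 without the intra-spot correlation. Without that correlation, deficient against control iPSC gave 11366 calls, against 17717, and differentiating clones against deficient iPSC 12506, against 19950. With normexp on all spots, deficient iPSC against V6.5 ESC gave 1579, against 5042.

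Signs turned near 0. Mycn A_52_P536494 stood at -0.01 without the dye term in deficient against control iPSC (-0.08 to 0.14 over left-out lines), at -0.06 without the dye term in differentiating clones against control iPSC (-0.08 to 0.11), and at 0.00 without the intra-spot correlation in differentiating clones against deficient iPSC (-0.08 to 0.08). Sox2 A_52_P307739 in differentiating clones against control iPSC stood at -0.01 without the odd array, with or without the intra-spot correlation (-0.12 to 0.12 over left-out lines). For differentiating clones against deficient iPSC, Myc A_52_P278549 stood at -0.23 without normalization between arrays and -0.04 by the scanner's processed signals (-0.14 to 0.23 over left-out clones), A_51_P102096 ran from -0.45 to 0.15 and A_52_P108346 from -0.56 to 0.07 over left-out clones. Klf4 A_51_P213544 against MEF ran from -0.41 to 0.02. Among named list genes, 782 values kept direction and call, 104 no longer passed and 1 turned, Mycbp A_52_P408657 at -0.16 without normalization between arrays.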
